A study of Mus musculus with 12 samples.

Results

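The genes followed here act in the recruitment of neutrophils: the chemokine ligands Cxcl1, Cxcl2, Cxcl3, Cxcl5 and Ppbp, their receptor Cxcr2, the cytokine Csf3 (granulocyte colony-stimulating factor, G-CSF) and its receptor Csf3r. They were chosen by name as 8 members of 1 axis, with earlier results of these data known. All 8 were found among the 19702 genes of the count table. All 8 were among the 16124 genes that passed the filter on low counts. RNA was sequenced from mouse corneas in 4 groups of 3 libraries, and each library pooled 6 corneas of 3 mice. Control corneas had neither injury nor treatment. Vehicle, UCS and UCPRP corneas shared an injury with benzalkonium chloride (BAK), a detergent-like preservative, given as 5 µl of a 0.2% solution to each eye every day for 14 days. Vehicle corneas are labelled as having had no treatment after injury, and the sources used here do not say whether they received drops without a biologic. Corneas of the UCS and UCPRP groups also received 5 µl of the 20% biologic 3 times a day for 10 days. The series title calls both biologics cord blood-derived and does not spell out their names. The sources used here give neither the strain and age of the mice nor the time of harvest, and they do not say whether treatment followed BAK or overlapped with it. Each biologic comes under 1 label, and the labels do not tell whether 1 batch was used.

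Neutrophils leave the blood along gradients of CXC chemokines that carry a Glu-Leu-Arg motif before the first cysteines. In the mouse, Cxcl1, Cxcl2, Cxcl3, Cxcl5 and the processed product of Ppbp are such ligands, and Cxcr2 is their shared receptor on neutrophils. G-CSF, made by epithelial cells, fibroblasts and macrophages under inflammatory stimuli, acts through Csf3r to drive the production, release and survival of neutrophils. In the cornea, epithelial cells and stromal keratocytes are known to make these ligands after injury, and neutrophils enter from vessels of the limbus.

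Each library held 18.55 M to 20.44 M estimated counts (median 19.02 M), and 17440 to 17890 genes were detected in each library. Levels are counts per 1 M counts (CPM) on library sizes scaled by TMM, and 3 counts, the limit that a count of 0 allows, correspond to 0.147 to 0.178 CPM (counting error only). Libraries differed within groups. Dbp, a gene of the circadian clock, was at 14.7 to 25.9 CPM in 4 libraries (Control 3, Vehicle 1, Vehicle 2 and UCS 1) and at 139 to 280 CPM in the other 8. Vehicle 3 was thus the only Vehicle library with high Dbp, and it was the lowest Vehicle library for every one of the 8 genes. Within Vehicle, the level of Dbp and the level of these genes cannot be told apart, so results are given with and without Vehicle 3 and within the high-Dbp libraries. Leaving out the lowest Vehicle library raises the Vehicle mean of these genes, so calls made without it are no separate support. The tissue label also met limits. Krt12, the keratin that defines corneal epithelium, was at 15902 to 32870 CPM in Control and at 3.29 to 186 CPM in the 9 injured libraries, while 11 of 11 conjunctival and goblet cell markers rose in Vehicle. A summed list of 6 lens genes ran from 26.8 to 25649 CPM over the 12 libraries, and 7 retina genes ran from 2172 to 12944 CPM. A summed list of 6 skeletal muscle genes ran from 6.20 to 1065 CPM. It was highest in Vehicle 3, against 151 and 480 CPM in Vehicle 1 and 2. RNA of neighbouring tissue was thus present in varying amounts, and its part in the results below was not tested.

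The 5 ligand genes lie together on chromosome 5 of GRCm38. From left to right they are Cxcl5 (Entrez 20311, 90759298 to 90761625), Ppbp (Entrez 57349, 90768518 to 90770063), Cxcl3 (Entrez 330122, 90786101 to 90788093), Cxcl1 (Entrez 14825, 90891245 to 90893121) and Cxcl2 (Entrez 20310, 90903899 to 90905938), a span of 146.641 kb. Pf4 lies between Ppbp and Cxcl3, and Cxcl15 between Cxcl3 and Cxcl1. Cxcr2 (Entrez 12765) lies on chromosome 1 at 74153994 to 74161246, Csf3r (Entrez 12986) on chromosome 4 at 126023441 to 126044975, and Csf3 (Entrez 12985) on chromosome 11 at 98700183 to 98703631. All 8 are annotated as protein-coding.

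Promoter sequences are shown for the 4 ligands of the cluster whose promoters could be matched. Of the 8 genes, 6 matched the RefSeq promoter table of GRCm38.p6. Cxcl5 and Csf3 did not, so their promoters were not searched. The lines give the 120 bases before each start site on the plus strand, 5′ to 3′: Cxcl1 chr5:90891125-90891244, Cxcl2 chr5:90903779-90903898, Cxcl3 chr5:90785981-90786100 and Ppbp chr5:90768398-90768517. Capitals mark an NF-κB core, GGAATTTCC, or a TATA box, TATAAA.
Cxcl1: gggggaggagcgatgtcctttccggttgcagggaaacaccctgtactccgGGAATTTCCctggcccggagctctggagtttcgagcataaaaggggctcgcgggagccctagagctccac
Cxcl2: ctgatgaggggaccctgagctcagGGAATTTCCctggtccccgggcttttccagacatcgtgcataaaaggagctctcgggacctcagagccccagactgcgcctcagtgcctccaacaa
Cxcl3: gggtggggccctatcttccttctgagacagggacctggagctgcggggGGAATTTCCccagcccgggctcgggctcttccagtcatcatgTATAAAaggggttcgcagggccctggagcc
Ppbp: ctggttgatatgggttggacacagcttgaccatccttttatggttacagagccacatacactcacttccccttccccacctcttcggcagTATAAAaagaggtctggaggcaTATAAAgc
The motifs GGAATTTCC, TATAAA and TTGCNNAA (a C/EBP half-palindrome pattern) were searched on both strands in the 250 bases before each start. GGAATTTCC was found in Cxcl1 at −70 to −62, in Cxcl2 at −96 to −88 and in Cxcl3 at −72 to −64. It was not found in those windows of Ppbp, Cxcr2 or Csf3r, and 0.286% of 32851 promoters (94) hold it. TATAAA was found in Cxcl3 at −30 to −25 and in Ppbp at −30 to −25 and −8 to −3, and 12.4% of promoters hold it. TTGCNNAA was found in none of the 6, and 9.56% of promoters hold it. These are matches of letters only.

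Vehicle was set against Control to see what BAK injury did. Of the 8 genes 6 rose: the ligands Ppbp, Cxcl5 and Cxcl3, the receptor Cxcr2, and both Csf3 and Csf3r. Of all 16124 genes tested, 9.58% were called higher. Shares of all genes are given for scale only, since the 8 were chosen with earlier results of these data known. Calls are those with an adjusted p under 0.05 (edgeR, quasi-likelihood; Benjamini-Hochberg over all genes tested), and log2 fold changes are given with their standard error (SE). The same 6 genes did not overlap between the groups, against 15.2% of all genes that were higher in every Vehicle library. The median log2 fold change of the 8 was 4.80, and that of all genes tested was 0.00. Nothing in the sources states that the pools of a group came from separate experiments, so p-values measure only the spread between these pools. In such pooled tissue, more cells of a type and more RNA per cell cannot be told apart.

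Ppbp, whose product is stored in platelet granules and is cut to an active CXCR2 ligand, showed the largest change of the 8. It was at 0.463, 1.30 and 3.11 CPM in the 3 Control libraries and at 613, 575 and 337 CPM in the 3 Vehicle libraries. Every Vehicle library was far above every Control library, and Vehicle 3 was the lowest of them. The log2 fold change was 8.28 (SE 0.73, adjusted p = 9.7e-05 by edgeR).

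Cxcl5, a ligand made mainly by epithelial cells, was at 3.97, 8.84 and 3.83 CPM in Control and at 233, 214 and 50.7 CPM in Vehicle. The groups did not overlap, although Vehicle 3 stood at 22.7% of the mean of the other Vehicle libraries. The log2 fold change was 4.91 (SE 0.58, adjusted p = 0.000268 by edgeR).

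Cxcl3 and Cxcl2 encode closely related ligands that macrophages, neutrophils and epithelium make. Cxcl3 was at 0, 0.0593 and 0.804 CPM in Control and at 50.9, 30.5 and 1.56 CPM in Vehicle. Cxcl2 was at 4.33, 6.64 and 10.1 CPM in Control and at 42.1, 23.5 and 0.937 CPM in Vehicle. Vehicle 1 and 2 were high for both, while Vehicle 3 lay only just above Control for Cxcl3 and below every Control library for Cxcl2. Cxcl3 rose with a log2 fold change of 6.48 (SE 1.35, adjusted p = 0.00677 by edgeR). For Cxcl2 the log2 fold change was 1.66 (SE 0.89, adjusted p = 0.257 by edgeR), and the groups overlapped. With a clock term in the fit (high or low Dbp), Cxcl2 was at 0.48. The call of Cxcl3 was lost in 4 of 23 alternative fits. These were limma-voom (adjusted p = 0.224), only the groups compared, and the fits within high-Dbp and within low-Dbp libraries.

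Cxcl1, the ligand often named KC, was at 2.57, 3.32 and 5.38 CPM in Control and at 9.29, 9.33 and 2.09 CPM in Vehicle. Vehicle 3 again lay below every Control library, and the groups overlapped. The log2 fold change was 0.87 (SE 0.51, adjusted p = 0.301 by edgeR).

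Cxcr2, the receptor that neutrophils use for all of these ligands, was at 3.53, 2.25 and 2.59 CPM in Control and at 50.7, 49.3 and 11.1 CPM in Vehicle. All Vehicle libraries were higher than all Control libraries (by edgeR, log2 fold change 3.72, SE 0.53, adjusted p = 0.000767). Cxcr1, the related receptor, had 0 counts in the Control libraries and 48 counts in Vehicle, all of them from Vehicle 1 and 2.

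Csf3 was nearly silent in Control, at 0.412, 0.534 and 0.673 CPM, and was at 36.1, 14.7 and 5.82 CPM in Vehicle. The lowest Vehicle library was well above the highest Control library (by edgeR, log2 fold change 5.11, SE 0.79, adjusted p = 0.00121). Csf3r, its receptor on cells of the granulocyte line, was at 4.06, 3.45 and 4.88 CPM in Control and at 149, 140 and 31.0 CPM in Vehicle. It did not overlap between the groups either (by edgeR, log2 fold change 4.69, SE 0.62, adjusted p = 0.000509).

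**Figure D1:**
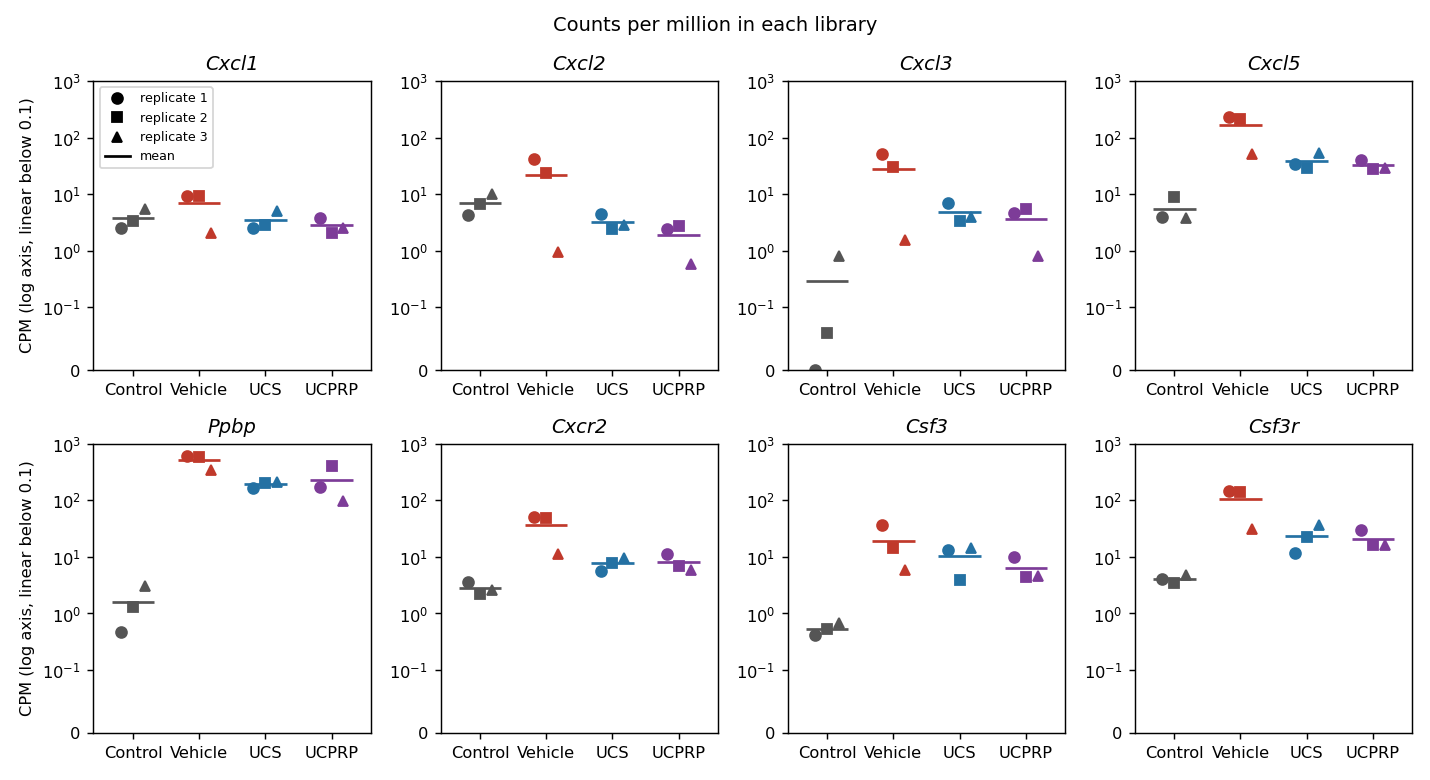
CPM (vertical axis, logarithmic above 0.1 and linear below) of the 8 genes in each library of the 4 groups; shapes mark the replicate number and the line is the mean of 3 libraries. Vehicle 3, the red triangle, is the lowest Vehicle library in every panel, and Ppbp lies above 99 CPM in all 9 injured libraries.

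Vehicle 3 was not equally low for all 8 genes. Its level was 56.7% of the mean of Vehicle 1 and 2 for Ppbp, 21.4% to 22.9% for Csf3r, Cxcr2, Cxcl1, Cxcl5 and Csf3, and 3.84% and 2.86% for Cxcl3 and Cxcl2. Muc5ac, the main mucin of conjunctival goblet cells, was at 655, 457 and 519 CPM in the same 3 libraries, so it was not low in Vehicle 3. Without Vehicle 3 all 8 genes were called higher in Vehicle than in Control, against 9.32% of all genes, with Cxcl2 at a log2 fold change of 2.22 (adjusted p = 0.0183 by edgeR) and Cxcl1 at 1.30 (adjusted p = 0.044). Within the high-Dbp libraries, where Vehicle 3 is the only Vehicle library and is assumed to vary like the others, Ppbp, Cxcl5 and Csf3r were called higher, against 2.39% of all genes. There Cxcl2 had a log2 fold change of −2.57 and Cxcl1 of −0.49, and neither was called. Within the low-Dbp libraries Ppbp, Cxcl5, Csf3r and Cxcr2 were called higher, against 0.794% of all genes, with Control 3 as the only Control library.

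**Figure D2:**
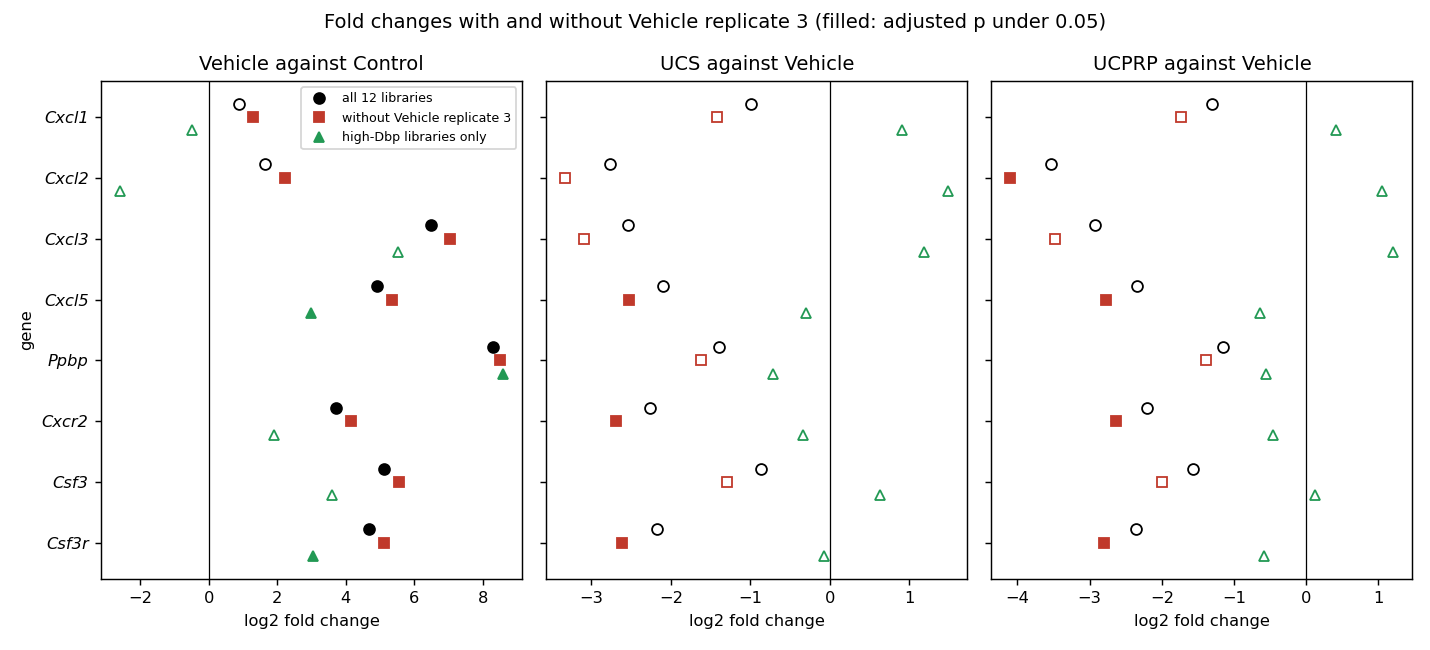
Log2 fold changes (horizontal axis) of the 8 genes from edgeR with all 12 libraries, without Vehicle 3, and within the high-Dbp libraries; filled symbols have an adjusted p under 0.05. With all libraries no gene is called against Vehicle in UCS or UCPRP, and within the high-Dbp libraries Cxcl1, Cxcl2, Cxcl3 and Csf3 lie on the other side of 0 in both of these comparisons.

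Values of Cxcl2 and Cxcl3 need to be read together. Each held a fraction in 9 of 12 libraries, while their sum was whole in 12 of 12 (within 0.005), so the deposited values divide reads between them. Their longest coding transcripts are the only pair among the 5 ligands that share stretches of 50 bases (61 of them), with 91.6% identity over 320 aligned bases. Cxcl3 held 4.05% of the summed counts in Control (95% Wilson interval 2.62% to 6.57%, counting error only), with 0%, 0.885% and 7.36% in the 3 libraries. In Vehicle it held 55.5% (53.7% to 57.3%), in UCS 59.4% (54.8% to 63.8%) and in UCPRP 65.5% (59.9% to 70.3%). The share was 54.7% to 67.0% in each of the 9 injured libraries, Vehicle 3 among them, although the sum itself ran from 92.96 CPM in Vehicle 1 to 2.50 CPM in Vehicle 3. Counted as 1 feature, the sum had a log2 fold change of 2.77 in Vehicle against Control (SE 0.98, adjusted p = 0.0825 by edgeR).

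**Figure D3:**
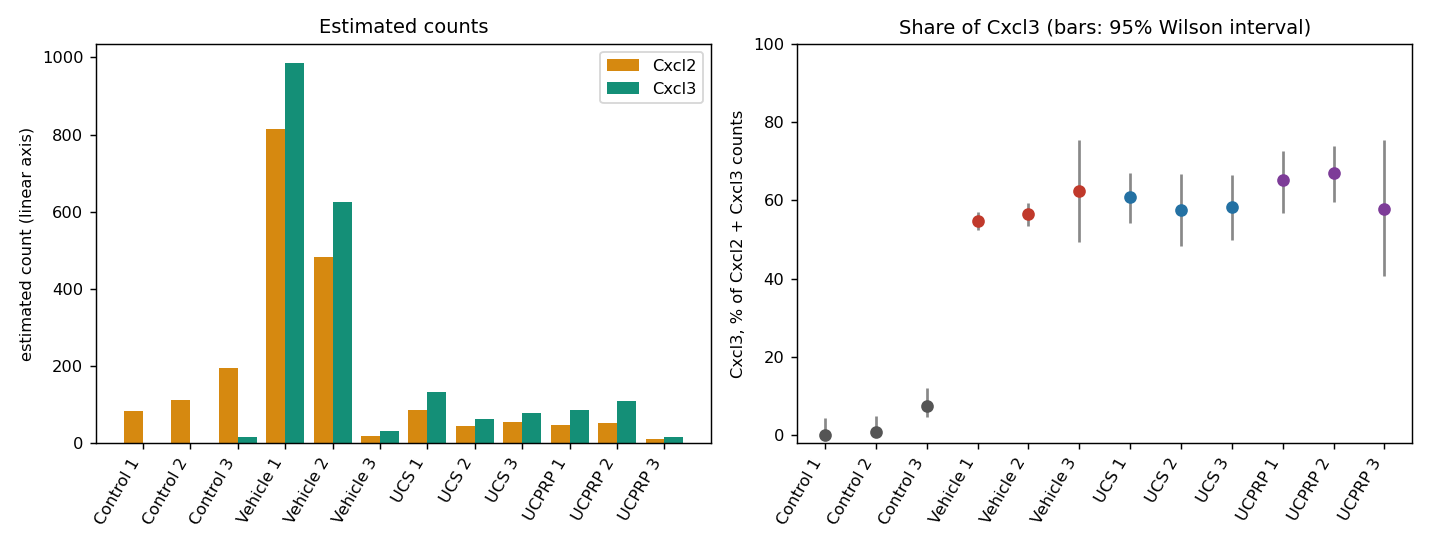
Left, estimated counts of Cxcl2 and Cxcl3 in each library (linear axis); right, the share of Cxcl3 in their sum in percent, with 95% Wilson intervals that cover counting error only. The share is at most 7.36% in Control and at least 54.7% in every injured library.

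Levels of different genes were compared only per length, as CPM per kb of all exon bases of a gene unless another length is named. In Control, Cxcl2 held 34.0% ± 4.32 (SD, n = 3) of the sum of the 5 ligands, Cxcl5 31.5% ± 14.1 and Ppbp 13.4% ± 7.84. No ligand led throughout: Cxcl5 was highest in 2 of the 3 Control libraries (35.3% and 43.3%), and per length of the longest coding transcript Cxcl1 had the highest mean (30.6%). In Vehicle Ppbp held 82.7% ± 7.62, in UCS 87.5% ± 2.81 and in UCPRP 88.3% ± 6.04. Ppbp was the top ligand in all 9 injured libraries, with Cxcl5 second on average in each injured group, at 14.1% ± 5.26 in Vehicle. Cxcl1, Cxcl2 and Cxcl3 each held less than 3% in every injured library by this length. By the longest coding transcript Cxcl3 held 6.28% in Vehicle 1, 4.18% in Vehicle 2 and 3.70% in UCS 1, and Ppbp was again the top ligand in all 9 injured libraries.

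**Figure D4:**
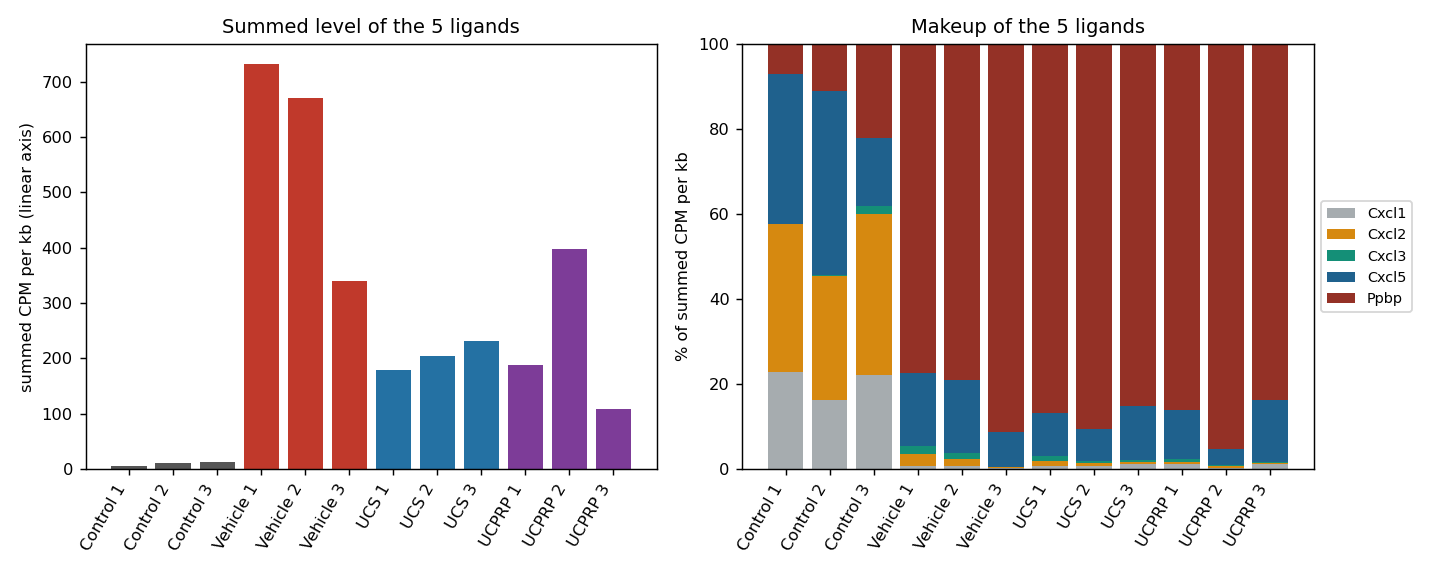
Left, summed CPM per kb of all exon bases of the 5 ligands in each library (linear axis); right, the percent of that sum held by each ligand. Ppbp fills at least 77.4% of each injured library and at most 22.2% of each Control library.

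The neighbours of the cluster did not all move with it. Pf4, a platelet chemokine that does not carry the Glu-Leu-Arg motif, rose from 2.27 to 3.68 CPM in Control to 14.1 to 18.5 CPM in Vehicle, with a log2 fold change of 2.58 (SE 0.28, adjusted p = 0.000167, edgeR). Cxcl15 had 6 counts in Control and 4 in Vehicle, too few to pass the filter. Rassf6 and Mthfd2l, which flank the cluster, were not called (log2 fold changes −0.19 and −0.19).

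Since Ppbp is best known from platelets, platelet markers are given beside it. Of 12 markers 5 passed the filter; Pf4 and Itgb3 rose and Gp1bb fell. Their summed level was 23.7 to 31.9 CPM in Control and 34.4 to 36.8 CPM in Vehicle. Itga2b, the platelet integrin, was at 5.75 to 6.29 CPM in Control and 4.25 to 5.32 CPM in Vehicle (adjusted p = 0.184 by edgeR), and Gp9 was at 0 to 0.147 CPM in both. Haemoglobin gene Hbb-bt fell (log2 fold change −1.74), and no red cell marker rose. Within Vehicle, Ppbp was lowest in the library where Pf4 was also lowest, at 337 and 14.1 CPM. The 3 genes whose pattern over the 12 libraries was most like that of Ppbp were Gp2, Tff1 and Muc5b (Pearson r 0.98, 0.98 and 0.98 of log2 CPM), all 3 on the goblet cell list. Gp2 was at 0.0515, 0.356 and 0.932 CPM in Control and at 272, 168 and 229 CPM in Vehicle, and rose with a log2 fold change of 8.93 (adjusted p = 2.24e-05 by edgeR). These points share the step from Control to injury, so the likeness is a description with n = 12 libraries, and the part of goblet cell RNA in the level of Ppbp was not tested.

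Neutrophil markers rose with the receptors. Of 22 markers 15 passed the filter, and 12 rose and 1 fell, with a median log2 fold change of 4.83. Trem1, an amplifier of myeloid activation, rose from 0.0515 to 0.119 CPM in Control to 19.1, 15.8 and 1.53 CPM in Vehicle (log2 fold change 7.27), and Clec4e, a pattern receptor, rose with a log2 fold change of 6.79. S100a8 and S100a9, which make up calprotectin, had log2 fold changes of 6.72 and 4.71. Mpo and Elane, which encode enzymes of granules made early in the bone marrow, were at or near 0, with at most 2 counts in any group, and Ly6g was at 1.20 to 1.74 CPM in Control and 0.648 to 1.06 CPM in Vehicle (adjusted p = 0.266). The summed neutrophil list was 93.2 to 197 CPM in Control and 844 to 1551 CPM in Vehicle, lowest in Vehicle 3. Macrophage markers also rose, 12 of 12, with Lyz2, Cd14 and Ccr2 at log2 fold changes of 2.30, 2.72 and 2.42.

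Among inducers of these ligands, 4 of 15 tested genes rose. Il1b, an interleukin that induces Cxcl1, Cxcl2 and Csf3 in many cells, was at 0.566, 1.60 and 1.86 CPM in Control and 113, 97.1 and 7.56 CPM in Vehicle and was called by edgeR (adjusted p = 0.00492, log2 fold change 5.76, SE 1.10). Il1f9 and Il1f8, members of the IL-36 group, had log2 fold changes of 1.30 and 1.09, both called. Tnf was at 15.6 to 26.5 CPM in Control and 10.3 to 23.8 CPM in Vehicle and was not called (log2 fold change −0.43, adjusted p = 0.475). Il17a had 6 counts in Control and 21 in Vehicle and did not pass the filter.

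On a list of other leukocyte attractants and receptors, 11 of 12 tested genes rose. Fpr1, the receptor of formylated peptides, had a log2 fold change of 4.63, the chemokine Ccl3 of 4.48 and the mucosal chemokine Cxcl17 of 4.59. Of 12 leukocyte adhesion genes 8 rose, with Selplg, a selectin ligand, at 2.89, Itgb2, the beta chain of leukocyte integrins, at 2.75, and Selp, which encodes P-selectin, at 2.65. Of 7 tested genes of other colony-stimulating factors and their receptors 5 rose, among them Csf2rb (3.86), Csf2rb2 (2.42) and Csf1r (1.28); reads of Csf2rb and Csf2rb2 can be shared.

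Of 20 signalling genes downstream of Cxcr2 and Csf3r, 9 rose and 1 fell. Socs3, the inhibitor that STAT3 induces to limit G-CSF signalling, was at 7.72 to 10.6 CPM in Control and at 99.9, 86.8 and 22.3 CPM in Vehicle and was called by edgeR (adjusted p = 0.00139, log2 fold change 2.96, SE 0.47). Plcb2 and Rac2, which act in chemokine signalling of leukocytes, were called higher as well (2.56 and 2.26 on the log2 scale). Of 6 retention and scavenger genes 1 rose, the CXCL12 receptor Cxcr4 (3.08), while Cxcl12 (0.52, adjusted p = 0.0753) and the scavenger receptor Ackr3 (−0.17) were not called. The median of all genes tested was 0.00 beside these lists.

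The comparisons with Vehicle ask whether either biologic changed the injured cornea. They share the Vehicle libraries, so the 2 are not independent of each other. With UCS, Ppbp was at 168, 200 and 214 CPM and Cxcl5 at 33.8, 28.6 and 54.0 CPM. Cxcl3 was at 7.09, 3.30 and 3.93 CPM, Cxcl2 at 4.55, 2.43 and 2.81 CPM, and Cxcl1 at 2.50, 2.84 and 5.06 CPM. Cxcr2 was at 5.56, 7.88 and 9.73 CPM, Csf3 at 13.0, 3.91 and 14.2 CPM, and Csf3r at 11.6, 22.8 and 36.4 CPM. Only for Ppbp and Cxcr2 did all UCS libraries lie below all Vehicle libraries (4.45% of all genes were lower in this way). For the rest of the 8 they lay below Vehicle 1 and 2 but not all below Vehicle 3. The share of all genes below Vehicle 1 and 2 was not counted, so that pattern has no background.

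None of the 8 genes was called in UCS against Vehicle, where 0.0% of all genes were called by edgeR. Over all genes, 782 had an unadjusted p under 0.05, against 806 expected if no gene differed. The 8 log2 fold changes were all negative, from −0.86 for Csf3 (95% interval −2.20 to 0.48) to −2.76 for Cxcl2 (−4.83 to −0.70), with a median of −2.14 beside −0.01 over all genes. Cxcr2 had −2.26 (SE 0.49), Csf3r −2.18 (SE 0.54) and Cxcl5 −2.10 (SE 0.50), each with an adjusted p of 0.894. DESeq2 called 3 of the 8 lower, Csf3r (adjusted p = 0.0296), Cxcl5 (0.0237) and Cxcr2 (0.0164), against 0.0682% of all genes. Without Vehicle 3, edgeR called the same 3 lower, with adjusted p of 0.0429, 0.029 and 0.0141, against 0.215% of all genes. With the clock term none of the 8 was called, and the log2 fold changes moved to −0.65 for Cxcl3 (from −2.53), −0.28 for Csf3 (from −0.86), −0.48 for Cxcl1 (from −0.99) and −1.59 for Cxcl2.

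With UCPRP, Ppbp was at 175, 409 and 99.1 CPM and Cxcl5 at 40.1, 28.3 and 29.6 CPM. Cxcl3 was at 4.59, 5.54 and 0.802 CPM, Cxcl2 at 2.45, 2.73 and 0.586 CPM, and Cxcl1 at 3.79, 2.05 and 2.57 CPM. Cxcr2 was at 11.3, 6.99 and 5.81 CPM, Csf3 at 10.1, 4.47 and 4.52 CPM, and Csf3r at 29.6, 16.5 and 16.2 CPM. Only for Cxcl5 and Csf3r did all UCPRP libraries lie below all Vehicle libraries (7.13% of all genes were lower in this way). For the rest of the 8 they lay below Vehicle 1 and 2 but not all below Vehicle 3, again with no background counted. For Ppbp, UCPRP 2 lay above Vehicle 3.

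None of the 8 genes was called in UCPRP against Vehicle, where 0.0% of all genes were called by edgeR. Over all genes, 1572 had an unadjusted p under 0.05, against 806 expected if no gene differed. The log2 fold changes of the 8 ran from −1.16 for Ppbp to −3.53 for Cxcl2, with a median of −2.27 beside 0.03 over all genes. The smallest adjusted p was 0.331, shared by Csf3r (−2.36, SE 0.55), Cxcl5 (−2.35, SE 0.51) and Cxcr2 (−2.20, SE 0.49). DESeq2 called 4 lower, Csf3r, Cxcl5, Cxcr2 and Cxcl2, against 0.879% of all genes. Without Vehicle 3, edgeR called the same 4 lower, against 1.08% of all genes, with Cxcl2 at −4.10 (adjusted p = 0.0164). With the clock term none of the 8 was called, and Cxcl3 moved to −0.15 (from −2.92), Csf3 to −0.61 (from −1.57), Ppbp to −0.67 and Cxcl2 to −1.70. Within the high-Dbp libraries, where Vehicle 3 stands alone for Vehicle, none of the 8 was called in either comparison, and the log2 fold changes of UCPRP against Vehicle ran from −0.64 for Cxcl5 to 1.21 for Cxcl3.

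The mean of both biologics was set against Vehicle as well. None of the 8 was called (0.0% of all genes), and the smallest adjusted p among the 8 was 0.207 by edgeR, for Cxcr2, Cxcl5 and Csf3r. Over all genes, 1390 had an unadjusted p under 0.05, against 806 expected if no gene differed. The median log2 fold change of the 8 was −2.23 and that of all genes was 0.01. Without Vehicle 3, the lowest Vehicle library for all 8, edgeR called 6 of them lower, all but Ppbp and Csf3, against 1.46% of all genes. DESeq2 on all libraries called 4 lower, against 0.912%.

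**Figure D5:**
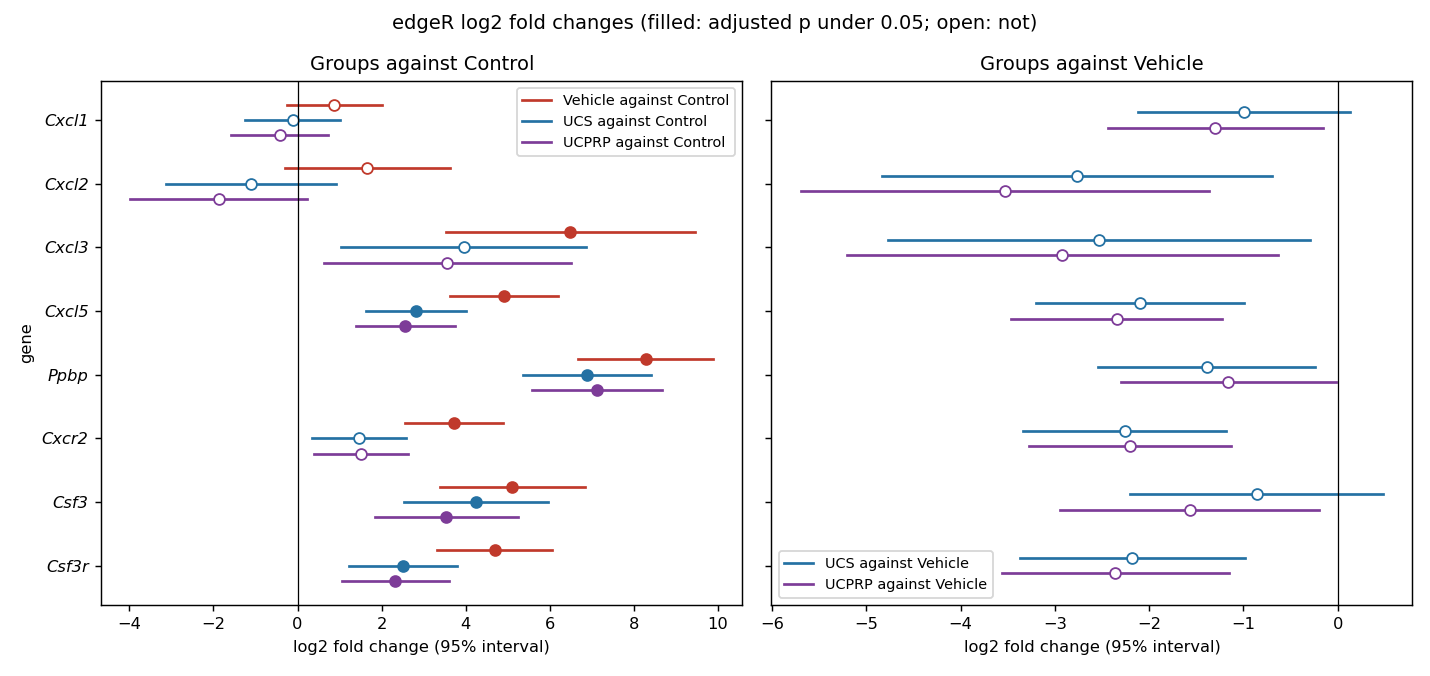
EdgeR log2 fold changes of the 8 genes with 95% intervals (horizontal axis), against Control on the left and against Vehicle on the right; filled points have an adjusted p under 0.05. Ppbp, Cxcl5, Csf3 and Csf3r are called against Control in all 3 injured groups, and no gene is called against Vehicle.

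The comparison of UCPRP with UCS asks whether the biologics differed from each other. No gene of the 8 was called by edgeR, DESeq2 or limma-voom (0.0% of all genes). Over all genes, 393 had an unadjusted p under 0.05 by edgeR, against 806 expected if no gene differed. The groups overlapped for all 8, while 4.91% of all genes were higher and 5.75% lower without overlap. The log2 fold changes ran from −0.77 for Cxcl2 to 0.23 for Ppbp. The 95% interval of the difference was −0.998 to 1.11 for Cxcr2, −1.35 to 0.98 for Csf3r, −0.90 to 1.36 for Ppbp and −2.89 to 1.36 for Cxcl2.

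Against Control, the treated corneas still held raised levels of part of the axis. In UCS, Ppbp (log2 fold change 6.89, SE 0.70), Csf3 (4.25, SE 0.78), Cxcl5 (2.82, SE 0.54) and Csf3r (2.51, SE 0.58) were called higher, with adjusted p from 0.000194 to 0.0172 by edgeR, against 6.4% of all genes. Cxcl3 (3.95, adjusted p = 0.0872) and Cxcr2 (1.46, adjusted p = 0.0985) were not called, and Cxcl1 and Cxcl2 had −0.12 and −1.10. In UCPRP the same 4 were called, Ppbp (7.12, SE 0.70), Csf3 (3.54, SE 0.77), Cxcl5 (2.57, SE 0.54) and Csf3r (2.33, SE 0.58), against 5.3% of all genes. There Cxcl3 (3.56, adjusted p = 0.127 by edgeR) and Cxcr2 (1.51, adjusted p = 0.0881) were not called. Cxcl2 was lower than in Control in all 3 UCPRP libraries, as were 13.7% of all genes, but was not called (−1.87, adjusted p = 0.269). With the clock term edgeR also called Cxcl3 higher, in UCS (4.93, adjusted p = 0.0185) and in UCPRP (5.43, adjusted p = 0.0182). That fit called 1025 of all genes higher in UCS and 739 in UCPRP. In UCPRP, DESeq2 called Cxcr2 higher as well (1.51, adjusted p = 0.0183), among 1114 of all genes that it called higher. Such added calls were not particular to UCPRP. Cxcr2 was called higher in 3 of 23 alternative fits for UCS and in 3 of 22 for UCPRP. For Cxcl3 this held in 5 of 23 and in 3 of 22. limma-voom called only Cxcl5 and Ppbp in both treated groups, against 5.58% of all genes in UCS and 4.55% in UCPRP. Without Control 1 only Ppbp was called in UCPRP against Control, against 3.15% of all genes, without Control 2 only Cxcl5 and Ppbp (3.97%), and without Control 3 only Csf3 and Ppbp (3.71%). Without Vehicle 3, which enters these fits only through the shared spread, 6 of the 8 were called higher in UCS (6.68% of all genes) and in UCPRP (5.5%), and Cxcl2 was called lower in UCPRP (4.98% of all genes; adjusted p = 0.0485 by edgeR).

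By mean CPM the order for Ppbp was Vehicle (508 ± 150), UCPRP (228 ± 162), UCS (194 ± 23.5) and Control (1.62 ± 1.35; SD, n = 3 each), and only the step to Control was called. For Cxcl5 it was Vehicle (166 ± 100), UCS (38.8 ± 13.4), UCPRP (32.7 ± 6.48) and Control (5.54 ± 2.85), again with a call only at the last step. For Csf3 the order was Vehicle (18.9 ± 15.6), UCS (10.4 ± 5.65), UCPRP (6.36 ± 3.23) and Control (0.540 ± 0.131), with a call only at the last step. Csf3r and Cxcr2 were highest in Vehicle (107 ± 65.8 and 37.0 ± 22.5) and lowest in Control (4.13 ± 0.72 and 2.79 ± 0.66), and the treated groups lay between them. Cxcl1 and Cxcl2 had their lowest means in UCPRP (2.80 ± 0.89 and 1.92 ± 1.17), below those in Control (3.76 ± 1.46 and 7.03 ± 2.92), with no call between UCPRP and Control for either.

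Likeness of patterns over the 12 libraries is given as a description. For genes called in Vehicle against Control, it includes the shared step from Control to injury. Csf3r was most like Csf2rb, Cd33 and Tlr13 (Pearson r 0.99, 0.99 and 0.98 of log2 CPM), and Cxcr2 most like Lrg1, H2-Q10 and Ampd3 (0.99, 0.98 and 0.97). Cxcl5 was most like Hmox1, Mefv and Cfl1 (0.99, 0.98 and 0.98), Cxcl3 most like Rcc1, Ptges and Pmaip1 (0.97, 0.96 and 0.96), and Csf3 most like Diaph2, Stim2 and Cyp7b1 (each 0.98). Cxcl1 was most like Ncapd2, Zwilch and E2f2 (0.97, 0.96 and 0.96), and Cxcl2 most like Ndc80, Ttf2 and Dlgap5 (0.95, 0.94 and 0.94). Among the 8 genes, the highest r was 0.98 between Cxcr2 and Csf3r, and the lowest was −0.03 between Cxcl2 and Ppbp.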

How the data were processed

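RNA of 12 pools of mouse corneas was sequenced, 3 per group. Library preparation used TruSeq Stranded Total RNA, per the labels' protocols. HISAT and GRCm38 appear, with no version or role, in the submitters' processing notes; the sources used here do not name the counting tool, the annotation or the use of strand. What the authors deposited are estimated counts per gene, headed as read counts per the file headers, with 2 decimals (64.9% whole) and no scaling by the authors to library size.

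Estimated counts were rounded for the tests, filtered with filterByExpr (minimum count 10), scaled with TMM (factors 0.825 to 1.07) and tested by edgeR 4.0.16 (R 4.3.3; quasi-likelihood F test, robust, 1 term per group, all 12 libraries), with Benjamini-Hochberg adjustment over 16124 genes and a threshold of 0.05. Contrasts were the 6 pairs of groups and both biologics against Vehicle. The SE is the size of the fold change (log2) over the square root of F. The fitting was checked on simulated counts. Alternatives were DESeq2 1.42.0, limma-voom (limma 3.58.1), other scaling and filters, only the groups compared, a replicate block, a clock term and leaving out each library; fits by Dbp level, Cxcl2 and Cxcl3 summed, and coding transcript lengths were added after the data were seen.

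Levels per length used the union of exons of GENCODE vM21; coordinates are from RefSeq on GRCm38.p6. Patterns were compared on log2 CPM (prior count 2). The genes and lists were chosen with earlier results of these data known. Named beside the 8 genes were up to 3 genes per list (largest changes among called genes, then highest CPM), a fixed set of markers, the 3 genes most like each of the 8, and the cluster's neighbours. Depth was 18.55 M to 20.44 M counts; intervals of shares cover counting error only.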

Additional observations from a re-analysis of the deposited data

How the results depend on the processing

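Depth limits Cxcl3 in Control, where 3 libraries together held 16.52 counts, and with 3 pools per group the spread within Vehicle limits every comparison with it. In Vehicle against Control 6 of the 8 genes were called with each scaling, filter and tool except limma-voom and the fit of only the groups compared (5 each), the low-Dbp libraries (4) and the high-Dbp libraries (3); leaving out each library in turn gave 6 to 8 genes called higher. Over all genes 2661 were called, 574 within the high-Dbp libraries, 154 within the low-Dbp libraries, and 1935 to 2550 without 1 library.

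Against Vehicle, no gene was called by edgeR with all libraries. DESeq2 called 3 of the 8 genes lower in UCS (13 of all genes, either way), 4 in UCPRP (145) and 4 for both biologics (154). Leaving out each library in turn gave 0 to 3 genes lower in UCS (0 to 37 of all genes), 0 to 4 in UCPRP (0 to 195) and 0 to 6 for both biologics (0 to 261); the highest counts are those without Vehicle replicate 3, and the cause was not tested.

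Against Control, limma-voom called 2 of the 8 genes in UCS and 2 in UCPRP where edgeR called 4, and the low-Dbp libraries, 1 per group, called 0 in UCS (0 of all genes, against 1753). Within the high-Dbp libraries 1027 genes were called in UCS and 1009 in UCPRP (1671 with all libraries). Leaving out each library gave 3 to 6 of the 8 genes higher in UCS (1089 to 1787 of all genes) and 1 to 6 higher and 0 to 1 lower in UCPRP (998 to 1709). By coding transcript length, Cxcl1 held the highest mean share of the 5 ligands in Control, 30.6%, against 28.8% for Cxcl2, and Ppbp held 83.8% in UCS.

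Some log2 fold changes that edgeR did not call with all libraries changed sign. Within the high-Dbp libraries Cxcl1 was at −0.49 and Cxcl2 at −2.57 in Vehicle against Control. In UCS, UCPRP and both biologics against Vehicle, those libraries gave 0.91, 0.42 and 0.66 for Cxcl1, 1.49, 1.05 and 1.27 for Cxcl2, 1.19, 1.21 and 1.20 for Cxcl3, and 0.64, 0.12 and 0.38 for Csf3. They also gave 0.41 for Cxcl1 in UCS against Control, and 0.019 for Cxcl3 and −0.13 for Cxcr2 in UCPRP against UCS. With a clock term, Cxcl1 was at 0.038 in UCS against Control and Cxcl3 at 0.50 in UCPRP against UCS. The sum of Cxcl2 and Cxcl3 was at 0.13 in UCS against Control, and limma-voom gave −0.0062 for Ppbp in UCPRP against UCS. In the low-Dbp libraries Rassf6 was at 0.054 and Mthfd2l at 0.073 in Vehicle against Control. Leaving out each library moved UCPRP against UCS between −0.58 and 0.070 for Cxcl1, −0.82 and 0.086 for Cxcl3, −0.43 and 0.065 for Cxcl5, −0.50 and 0.59 for Ppbp, −0.27 and 0.26 for Cxcr2, and −0.53 and 0.27 for Csf3r. It moved Cxcl1 in UCS against Control between −0.50 and 0.23, Csf3 in UCS against Vehicle between −1.29 and 0.022, and Mthfd2l in Vehicle against Control between −0.30 and 0.027. No value of the 8 genes that edgeR called with all libraries changed sign. Among calls of other fits some did, such as Cxcl1 and Cxcl2 in Vehicle against Control, called higher without Vehicle 3.

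Same-numbered libraries had correlations of their deviations from the group means of −0.58 to 0.49 (median −0.10, 18 pairs). Other-numbered libraries of different groups had −0.50 to 0.58 (median 0.07, 36 pairs). These correlations cannot decide whether the replicate numbers pair the samples. With the replicate block, 6 of the 8 genes were called in Vehicle against Control, 4 in UCS and 3 in UCPRP against Control (without Csf3r), and none against Vehicle. Of all genes, that fit called 1376 higher in Vehicle, 882 in UCS and 717 in UCPRP against Control, and 0 against Vehicle. Cxcr2 was at −0.059 in UCPRP against UCS.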
